A study of Homo sapiens with 4 samples.

Results

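The genes described here are 8 transcription factors of the interferon and cytokine pathways: the interferon regulatory factors IRF1, IRF2, IRF3, IRF5, IRF7 and IRF9, and the signal transducers STAT2 and STAT3. They were taken by symbol, and all 8 were found among the 60683 gene identifiers of the tables and passed the filter on low counts together with 14470 genes in all. RNA was measured in 4 libraries of polyadenylated RNA from HCT116, an established human colorectal carcinoma line. The 2 control libraries came from cells stably transduced with the empty pSin lentiviral vector, and the other 2 from cells transduced with the same vector that held the whole coding sequence of the gene FOXD2, a factor of the forkhead class. All 4 libraries came from cells kept under puromycin.

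Interferon regulatory factors share a DNA-binding domain that reads GAAA repeats. IRF3 is made in most cells, waits in the cytoplasm and is phosphorylated when viral nucleic acid is sensed, whereas IRF7 is itself an interferon-induced gene and amplifies the production of type I interferon. Type I and type III interferons activate the Janus kinases TYK2 and JAK1, which phosphorylate STAT2. It joins IRF9 in ISGF3, the complex that binds the interferon-stimulated response element (ISRE) of antiviral genes. IRF1 is induced by interferon gamma, IRF2 competes with it at many of the same sites, and IRF5 acts below Toll-like receptors. STAT3 is the factor of the interleukin-6 family, active in many epithelial tumours.

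Between 14231338 and 15535817 counts were assigned to genes in each library. FOXD2 was counted 49 and 42 times in cells with the empty vector and 8195 and 7011 times in cells with the FOXD2 vector, which is 7.32 higher on the log2 scale (SE 0.10, adjusted p of edgeR = 6.53e-50); these counts pool the delivered sequence with the cells' own transcript. Among all genes tested, 53.5% passed the test at an adjusted p of 0.05, 27.2% as higher and 26.4% as lower in FOXD2 cells, and 8.2% were higher by at least 2-fold. The median log2 fold change over all genes tested was 0.01, with the middle 50% of the genes between -0.28 and 0.39. Mitochondrially encoded RNA took 8.8% and 9.0% of all counts without FOXD2 and 10.6% and 10.9% with it. A group of 5 small RNAs that lack a poly(A) tail summed to 29.7 and 28.5 CPM (counts scaled to the size of the library) without FOXD2 and to 129.3 and 56.8 CPM with it; the part of either measure in the results that follow was not tested. Nothing in the labels states that the 2 replicates of a group were grown or transduced separately, and the p-values given here rest on a spread between libraries that may be technical.

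Of the 8 genes, 5 rose in FOXD2 cells (IRF7, IRF9, STAT2, STAT3 and IRF2), 1 fell (IRF5) and 2 did not pass the test (IRF1 and IRF3), by the edgeR quasi-likelihood test with Benjamini-Hochberg adjustment over all 14470 genes. Those that rose by at least 2-fold were IRF7, IRF9 and STAT2. Of all genes tested, 27.2% rose, 26.4% fell and 8.2% rose by at least 2-fold. The median log2 fold change of the 8 genes was 0.60. The CPM of the groups did not overlap in 7 of the 8, while this held for 76.1% of all genes tested, so a lack of overlap was common. The FOXD2 libraries were the higher in 5 of the 8 and in 38.9% of all genes, and the lower in 2 and in 37.2%. Summed over the 8 genes, the level was 181.9 and 170.0 CPM without FOXD2 and 292.5 and 322.9 CPM with it. In RNA from bulk cultures, a change in the share of cells that express a gene and a change in RNA per cell cannot be told apart.

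**Figure D1:**
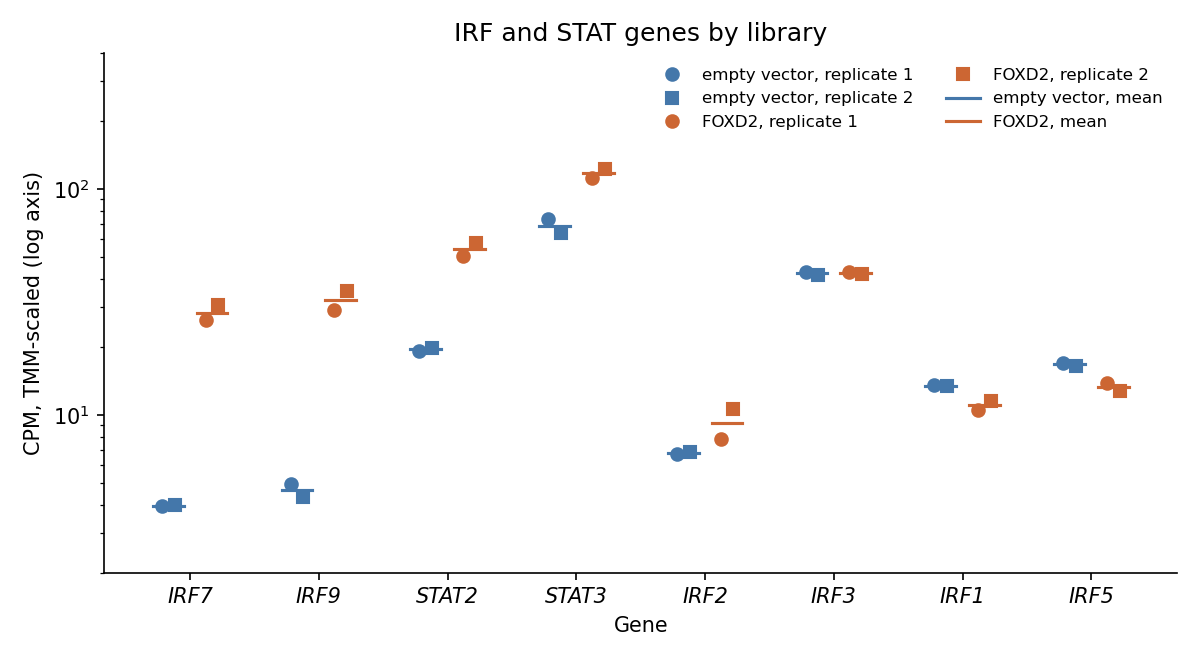
Level of each of the 8 genes in every library, in TMM-scaled CPM on a log axis; circles are replicate 1, squares replicate 2 and short lines the mean of each group. IRF7 and IRF9 lie near 4 to 5 CPM in the empty vector libraries and above 26 CPM in the FOXD2 libraries, whereas the points of IRF3 lie on top of each other.

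IRF7 (ENSG00000185507), on the minus strand of chromosome 11 from 612553 to 615999 in GRCh38, was counted 55 and 60 times without FOXD2 and 407 and 447 times with it. This was 3.93 and 3.97 CPM against 26.1 and 30.5 CPM. Both FOXD2 libraries were far above both controls, and the controls differed from each other by little. The mean went from 3.95 ± 0.0288 to 28.3 ± 3.11 CPM (SD, n = 2 each), a rise of 7.15-fold (log2 2.84, SE 0.15, 95% interval 2.54 to 3.14, edgeR adjusted p = 2.51e-23). The SD of the controls rests on 2 libraries with 55 and 60 counts and understates their error. In the order of all genes by log2 fold change IRF7 stood at place 156.

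IRF9 (ENSG00000213928), the DNA-binding subunit of ISGF3, lies on the plus strand of chromosome 14 from 24161053 to 24166565 in GRCh38. Its counts were 69 and 65 without FOXD2 and 454 and 518 with it, which is 4.94 and 4.31 CPM against 29.2 and 35.4 CPM. The lower of the FOXD2 values was still well above the higher control. The rise was 6.98-fold (log2 2.80, SE 0.14, 95% interval 2.52 to 3.09, edgeR adjusted p = 1.11e-23), close to that of IRF7. IRF9 shares reads with AL136295.5, a gene annotated over it on the same strand, to which the authors' estimate gave 54, 186, 151 and 93 counts in the same order of libraries. With both genes summed, an alternative chosen after seeing the data, the counts were 123, 251, 605 and 611 and the log2 fold change was 1.65 (edgeR adjusted p = 0.0417). The rise is therefore smaller if every read of AL136295.5, shared or not, is given to IRF9. In the authors' estimate, the SD from shared reads was 4.17, 6.42, 7.19 and 5.76 counts for IRF9. For AL136295.5 it was 21.1, 31.8, 32.7 and 25.4 counts. The sum thus moves many more counts than that SD of IRF9. For the other 7 genes the authors' estimate carried no uncertainty from shared reads.

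STAT2 (ENSG00000170581), the partner of IRF9 in ISGF3, was counted 269, 297, 787 and 840 times in empty vector replicates 1 and 2 and FOXD2 replicates 1 and 2. This was 19.2 and 19.7 CPM against 50.6 and 57.4 CPM, again without overlap and with nearly equal controls. The gene lies on the minus strand of chromosome 12 from 56341597 to 56360155 (GRCh38). It rose 2.77-fold (log2 1.47, SE 0.10, 95% interval 1.28 to 1.66, edgeR adjusted p = 1.85e-19). The interval of IRF9 lies above that of STAT2, but the value for IRF9 summed with AL136295.5 lies within it.

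STAT3 (ENSG00000168610) was counted 1028 and 961 times without FOXD2 and 1740 and 1795 times with it. The levels were 73.5 and 63.7 CPM against 111.8 and 122.7 CPM, with a gap between the groups wider than the difference within either. The rise was 1.71-fold (log2 0.77, SE 0.07, 95% interval 0.62 to 0.92, edgeR adjusted p = 1.87e-12). The gene spans 42313324 to 42388568 on the minus strand of chromosome 17 (GRCh38).

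IRF2 (ENSG00000168310, chromosome 4, 184387713 to 184474580, minus strand) had the smallest rise. Its counts were 94, 103, 121 and 155, or 6.72 and 6.82 CPM against 7.77 and 10.6 CPM. FOXD2 replicate 2 stood apart from the other 3 libraries. The log2 fold change was 0.44 (SE 0.18, 95% interval 0.08 to 0.79, edgeR adjusted p = 0.0331). Without FOXD2 replicate 2 it was 0.20 and did not pass (adjusted p = 0.466), and the call ended in 9 of 15 alternatives in all, leaving out either empty vector library included (adjusted p = 0.121 and 0.108).

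IRF5 (ENSG00000128604, chromosome 7, 128937612 to 128950035, plus strand) was the one gene of the 8 that fell. It was counted 238, 248, 215 and 186 times, or 17.02 and 16.43 CPM against 13.8 and 12.7 CPM. The 2 FOXD2 libraries were lower than both controls. The log2 fold change was -0.33 (SE 0.13, 95% interval -0.59 to -0.07, edgeR adjusted p = 0.0265). This call ended in 9 of 15 alternatives, among them the fits that left out the first or the second empty vector library (adjusted p = 0.132 and 0.076) or FOXD2 replicate 2 (adjusted p = 0.112).

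IRF1 (ENSG00000125347, chromosome 5, 132481609 to 132490798, minus strand) had 189 and 202 counts without FOXD2 and 164 and 168 with it. At 13.5 and 13.4 CPM against 10.5 and 11.5 CPM its groups did not overlap. Its log2 fold change of -0.29 (SE 0.14, 95% interval -0.57 to -0.01) did not pass after adjustment (edgeR adjusted p = 0.078), nor in any of 15 alternatives. A pair of genes overlap IRF1 on the other strand, C5orf56 with a log2 fold change of -0.34 (adjusted p = 0.564) and AC116366.3 with 0.85 (adjusted p = 0.0347); the count of IRF1 carried no uncertainty from shared reads in any library.

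IRF3 (ENSG00000126456, chromosome 19, 49659569 to 49665875, minus strand) had 601, 630, 665 and 616 counts. Its levels were 43.0 and 41.7 CPM without FOXD2 and 42.7 and 42.1 CPM with it, so both FOXD2 values lay between the controls. The log2 fold change was 0.00 (SE 0.09), and the 95% interval from -0.17 to 0.17 leaves room for a difference of that size in either direction (edgeR adjusted p = 0.986). The sign of so small a value changed in 8 of 15 alternatives. BCL2L12, which overlaps IRF3 on the opposite strand, had a log2 fold change of -0.04 (adjusted p = 0.72).

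**Figure D2:**
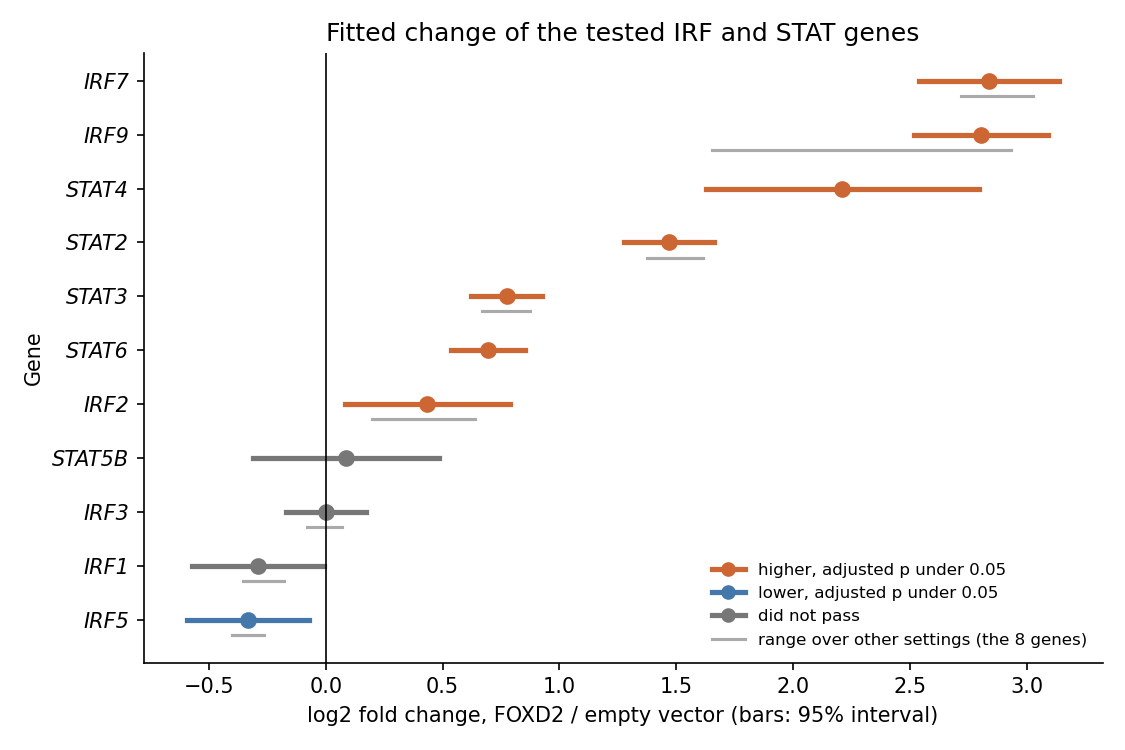
Fitted log2 fold change (FOXD2 over empty vector) of 11 tested IRF and STAT genes with 95% intervals, and for the 8 genes the range over the other settings tried. IRF7 and IRF9 stand at 2.84 and 2.80, and the intervals of IRF1, IRF3, IRF2 and IRF5 lie near 0. The low end of the range of IRF9 is the sum with AL136295.5, at 1.65.

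Levels of different genes can be compared only per length, for which the authors' TPM (a level scaled for transcript length) was used. In empty vector cells IRF3 was the most abundant of the 8 at 53.8 ± 8.48 TPM, followed by STAT3 at 21.0 ± 1.17, IRF1 at 12.04 and 11.97 in its 2 libraries, IRF5 at 9.19, STAT2 at 7.46, IRF2 at 6.12, IRF9 at 4.87 and IRF7 at 3.26 TPM. By these TPM values, no neighbours in that order overlapped between libraries. The authors' intervals for TPM, however, overlapped between neighbours from IRF1 down to IRF7 in both controls. In empty vector replicate 1 they ran from 9.65 to 14.7 for IRF1, 9.55 to 15.4 for IRF5 and 7.58 to 11.4 TPM for STAT2. IRF7, at 3.14 TPM there, lay below its own interval of 3.63 to 6.31 TPM. Only the places of IRF3 and STAT3 stood clear by these intervals. In FOXD2 cells IRF3 still led at 51.9 ± 5.23 TPM, although its interval overlapped those of STAT3 and, narrowly, IRF9 in FOXD2 replicate 2. STAT3 at 36.9 and IRF9 at 36.3 TPM came next and overlapped, as did IRF7 at 27.3 and STAT2 at 23.2 TPM. The 3 lowest were IRF1 at 10.5, IRF5 at 7.46 and IRF2 at 7.30 TPM, the last pair overlapping. By the authors' intervals IRF1 and IRF5 overlapped as well. IRF7, the lowest gene of the controls, stood above IRF1 and IRF5 in FOXD2 cells, and so did IRF9. The place of IRF9 in the controls depends on how many reads of AL136295.5 are given to it. With all reads of AL136295.5, shared or not, IRF9 would stand at 9.84 and 16.3 TPM in the controls, above STAT2 and IRF2. By the group mean it would stand above IRF1 and IRF5 in the controls too, although 9.84 TPM lies below both in that library. In FOXD2 cells it would stand at 44.1 and 46.7 TPM. The estimated lengths of the 8 genes differed between libraries, which moves TPM but not counts. The effective length ranged from 917 to 1142 bases for IRF3 and from 1295 to 1816 for IRF2. For IRF7 it ranged from 1258 to 1602 and for STAT2 from 2830 to 3454 bases.

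**Figure D3:**
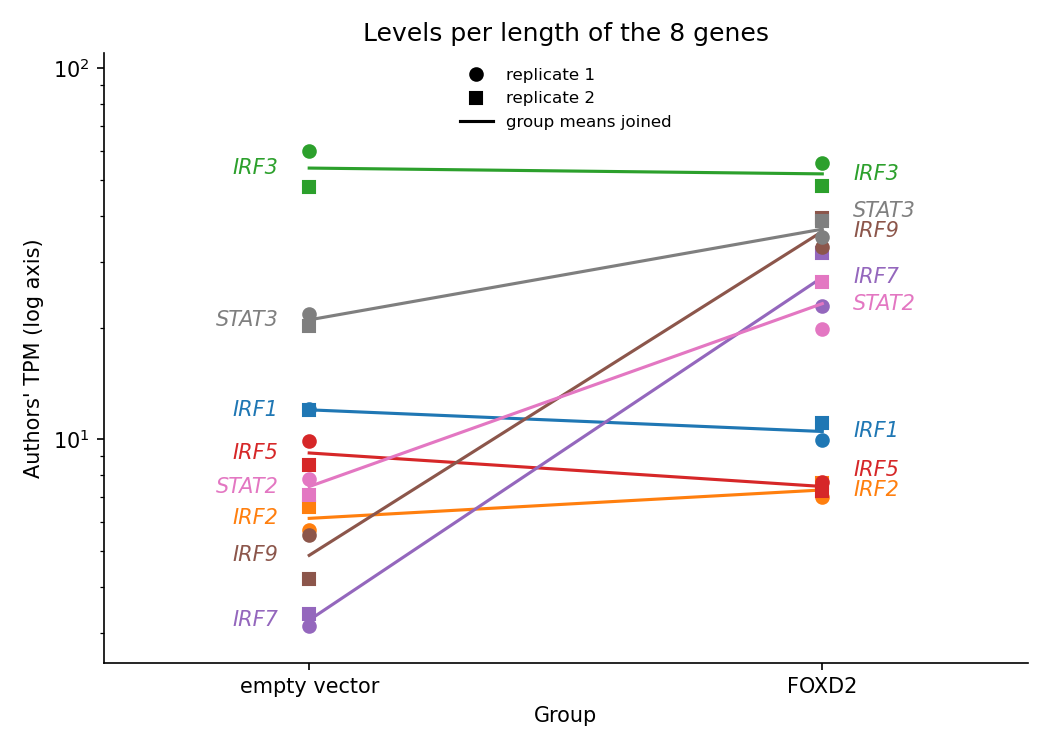
The authors' TPM of the 8 genes in empty vector and FOXD2 libraries, on a log axis, with a point for each library and a line between the group means. The lines of IRF7 and IRF9 climb past those of IRF1, IRF5 and IRF2. That of STAT2, which starts above IRF2, climbs past IRF1 and IRF5, and the line of IRF3 stays near 52 to 54 TPM. With all reads of AL136295.5 given to IRF9, its mean in the controls would already lie above IRF1, IRF5 and IRF2.

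The share of single genes in the RNA of the 6 interferon regulatory factors was read from the same TPM values. Of the summed TPM of IRF1, IRF2, IRF3, IRF5, IRF7 and IRF9, IRF3 held 62.3% and 58.0% in controls and 40.9% and 33.2% in FOXD2 libraries. IRF9 went from 5.74% and 5.11% to 24.3% and 27.2%, or, with the reads of AL136295.5, from 9.80% and 17.2% to 29.9% and 30.6%. IRF7 went from 3.27% and 4.09% to 16.8% and 21.8%. The ratio of IRF9 to STAT2 in TPM was 0.705 and 0.595 without FOXD2 and 1.66 and 1.49 with it. With the reads of AL136295.5 given to IRF9 the ratio was 1.26 and 2.30 without FOXD2 and 2.22 and 1.76 with it, so IRF9 then stood above STAT2 in all 4 libraries and the groups overlapped. IRF7 went from 0.0525 and 0.0704 of the level of IRF3 to 0.411 and 0.659.

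Of 6 other IRF and STAT genes, 3 were tested and 2 rose, a share of 66.7% against 27.2% of all genes tested. STAT4, which acts downstream of interleukin-12, had 16, 19, 84 and 85 counts and the larger rise, with a log2 fold change of 2.21 (edgeR, SE 0.29, adjusted p = 4.36e-09). STAT6, the factor of interleukin-4 and interleukin-13, rose by 0.70 on the log2 scale (adjusted p = 7.32e-11). STAT5B had a log2 fold change of 0.09 and did not pass (adjusted p = 0.736). IRF4 and IRF8, factors of blood cells, and STAT5A had at most 3 counts in any library.

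The genes that feed these factors were read from lists of pathway members. Of 21 interferon genes none passed the filter on low counts and 19 were at 0 in all libraries, including IFNB1, IFNG and IFNL1; 0 counts allow a level of up to 0.193 to 0.215 CPM in a library, for counting error only. IFNE was counted 2, 3, 0 and 0 times and IFNA6 0, 1, 0 and 0 times. Of 15 interferon and cytokine receptors and Janus kinases, 5 rose and 3 fell, with a median log2 fold change of 0.07. The share that rose, 33.3%, is near the 27.2% of all genes tested, and 26.4% of all genes fell. The largest rises in this list were those of IL11RA, the interleukin-11 receptor (1.19, adjusted p = 0.00023), IL6R (0.78, adjusted p = 2.73e-06) and JAK3 (0.65, adjusted p = 0.0254). LIFR, IFNAR2 and JAK1 fell by 0.44, 0.41 and 0.19 (edgeR adjusted p = 0.0025, 0.00447 and 0.0168). IFNAR1, the other chain of the type I receptor, had a log2 fold change of 0.07 (adjusted p = 0.474). TYK2, the kinase bound to IFNAR1, named after its value was seen, rose by 0.65 (adjusted p = 3.09e-10).

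Of 15 adaptors and kinases that activate IRF3, IRF5 and IRF7, 7 rose and 2 fell, with a median log2 fold change of 0.13. The share that rose was 46.7%, against 27.2% of all genes tested, of which 26.4% fell. MYD88, the Toll-like receptor adaptor upstream of IRF5 and IRF7, rose by 0.91 (adjusted p = 1e-11), TRAF6 by 0.66 (adjusted p = 6.89e-07) and IKBKE, a kinase of IRF3 and IRF7, by 0.64 (adjusted p = 0.00468). TANK and TBK1, the scaffold and main kinase of the IRF3 arm, fell by 0.21 and 0.18 (edgeR adjusted p = 0.0291 and 0.0482). Neither of these 2 falls kept its call with the replicate number as a block, and the number of genes of this list that fell was 0 or 1 when any library was left out.

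Of 18 negative regulators, 8 rose and 3 fell, with a median log2 fold change of 0.33. The share that rose was 44.4%, against 27.2% of all genes tested, of which 26.4% fell. IRF2BP2, a corepressor that binds IRF2, rose from 584 and 626 to 2384 and 2114 counts (log2 1.84, SE 0.07, edgeR adjusted p = 1.4e-28). NLRC5, which also activates MHC class I genes, rose by 1.67 (adjusted p = 2e-11), and USP18, which removes ISG15 from proteins and blocks the type I receptor, went from 94 and 114 to 259 and 302 counts (log2 1.38, adjusted p = 1.3e-11). IRF2BPL, PTPN11 and PTPN2 fell by 0.45, 0.32 and 0.27 (edgeR adjusted p = 3.26e-06, 3.01e-06 and 0.00479). SOCS1 and SOCS3, feedback inhibitors of the Janus kinases, had log2 fold changes of 0.64 and -0.13 and did not pass (adjusted p = 0.0859 and 0.433).

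**Figure D4:**
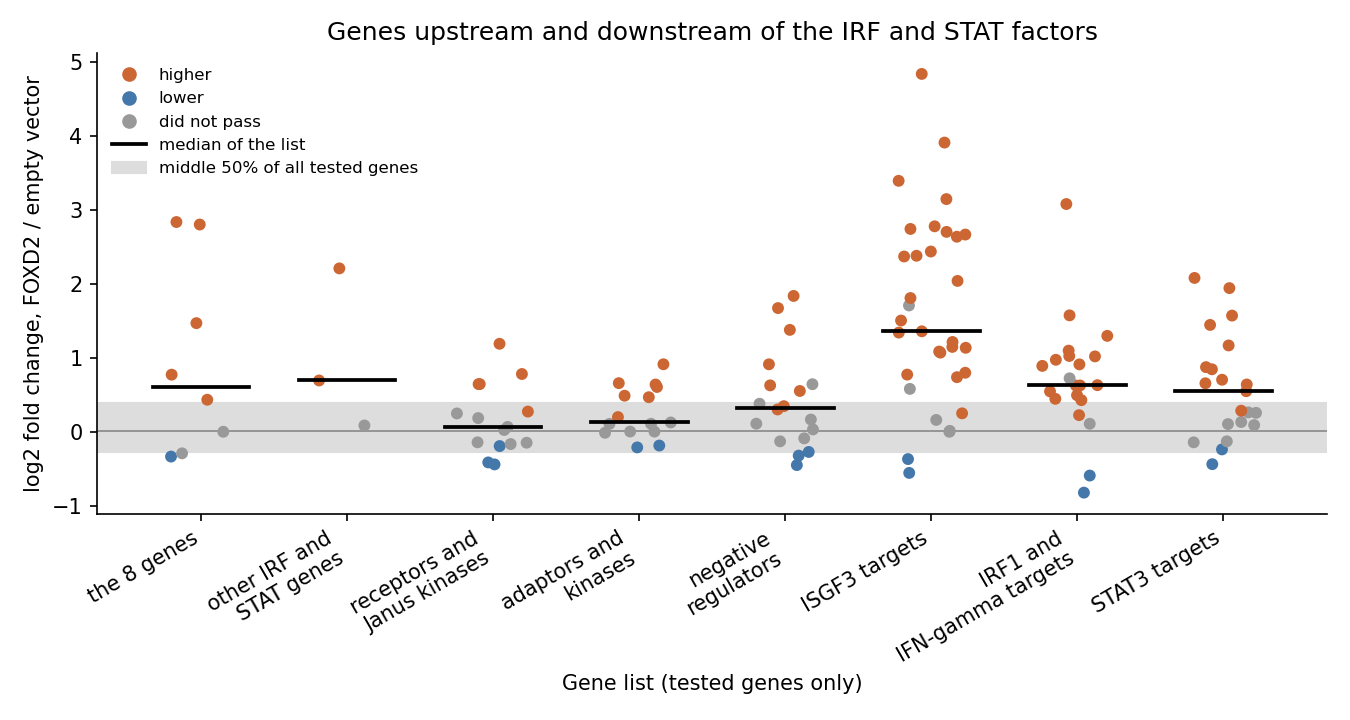
Log2 fold change (FOXD2 over empty vector) of each tested gene in the lists upstream and downstream of the 8 genes, one point a gene, with the median of each list as a line. The median is 1.36 for the ISGF3 targets, 0.63 for the IRF1 targets and 0.55 for the STAT3 targets, against 0.07 for receptors and Janus kinases and 0.13 for adaptors and kinases.

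Genes known to be driven by ISGF3 were counted next. Of 40 such genes, 33 were tested, 26 rose and 2 fell. At least 2-fold rises numbered 22, and the median log2 fold change was 1.36. Placing OAS1 at the lower limit of its interval could not move this median, because that limit also lies above it. The share of the tested genes that rose was 78.8%. Of all genes tested, 27.2% rose and 8.2% rose by at least 2-fold. The list was drawn up with the rise of interferon-induced genes in these libraries known, so its direction is a description. Some targets, among them OAS1, IFI44 and MX1 (1, 5, 15 and 29 counts), passed the filter on low counts only through the FOXD2 libraries. Such genes could hardly enter as falls, yet they count in the share, the 2-fold number and the median. OAS1, a sensor of double-stranded RNA, had 2, 1, 41 and 55 counts, a ratio of 30.8 (exact 95% interval 10.2 to 152.0, counting error only). IFI44 had 1, 6, 38 and 74 counts (log2 3.91, edgeR adjusted p = 1.46e-07) and IFI6, a mitochondrial survival protein, 36, 53, 384 and 585 (log2 3.39, adjusted p = 0.0091). The ubiquitin-like ISG15 had 466, 508, 1417 and 1453 counts (log2 1.51, edgeR adjusted p = 5.33e-23). Among tested genes of a level similar to STAT2, ISG15 was the nearest to it in pattern over the 4 libraries, with RHPN1 almost as near. HERC5 and UBE2L6, the ligase and conjugating enzyme that attach ISG15 to proteins, fell by 0.55 and 0.37 (edgeR adjusted p = 0.000656 and 0.0201). The list summed to 970.8 and 938.2 CPM without FOXD2 and to 1426 and 1717 CPM with it. In FOXD2 replicate 2 against replicate 1, 28 of the 33 genes were higher, with a median log2 difference of 0.30, whereas 50.2% of all genes tested were higher and their median was 0.00. IRF7, IRF9 and STAT2 were also higher in that replicate.

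The start regions of these genes show the letters that the factors read. RefSeq windows of 300 bases (GRCh38.p14, 250 before to 50 after the start) were searched on both strands for the letters GAAANNGAA of the ISRE, TTCNNNGAA of the gamma-activated site (GAS) that STAT dimers bind, and TGTTTAC and TATTTAC of forkhead factors. Of all 35116 windows, 8.11% held the ISRE letters, 7.66% the GAS letters, 3.42% TGTTTAC and 2.67% TATTTAC. Windows were given for 5 of the 8 genes (IRF1, IRF5, IRF9, STAT2 and STAT3; 8 windows, 4 of them of IRF5). IRF1 and IRF9 each held 1 GAS match, 1 window of IRF5 held the ISRE letters, and none held either forkhead motif. Annotated exons of IRF9 cover 212 of the 250 bases before the start in its window, its GAS match among them. Those of IRF1 cover 25 bases of its window before the start, outside its match. Among ISGF3 targets, 24 of the 33 genes in the table held the ISRE letters. Printed here in capitals, within 30 bases of the gene's strand, are the GAS matches of IRF1 (chr5:132490879-132490908, minus strand) and IRF9 (chr14:24161191-24161220, plus strand). With them stand ISRE matches extended by 1 more A, of 2 targets that rose, IFI44 (chr1:78649761-78649790, plus strand) and IFI6 (chr1:27672329-27672358, minus strand), and of HERC5 (chr4:88457035-88457064, plus strand), which fell. In IFI44 and HERC5 the match reads on the opposite strand, as TTTC.
IRF1: aacagcctgatTTCCCCGAAatgacggcac
IRF9: gaccacgtgatTTCTGGGAAaaggccctcc
IFI44: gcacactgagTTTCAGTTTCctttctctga
IFI6: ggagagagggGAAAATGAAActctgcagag
HERC5: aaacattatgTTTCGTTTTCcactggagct
Of the printed genes with the GAS letters, IRF1 did not pass the test and IRF9 rose by 2.80 on the log2 scale. Of those with the ISRE letters, IFI44 and IFI6 rose and HERC5 fell. The part of these letters in the changes was not tested. A match is a run of letters and no measurement of binding.

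Genes with these letters were then compared with all genes that had a window. Of the 10762 tested genes with a window, 26.7% rose and 28.6% fell. Of 871 such genes with the ISRE letters that were in none of the lists, 27.3% rose and 29.2% fell. Their median log2 fold change was -0.02. Among ISGF3 targets, 18 of 22 tested genes with the letters rose (median 1.76) and 5 of 7 without them (median 1.09); the difference between these was not tested. Of 375 tested genes with TGTTTAC, 31.5% rose and 26.7% fell, and of 226 with TATTTAC, 27.0% rose and 33.6% fell.

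Of 31 genes known as targets of IRF1 and interferon gamma, 21 were tested, 17 rose and 2 fell. The median log2 fold change was 0.63, and 81% of the tested genes rose, against 27.2% of all genes tested. IRF1 itself did not pass the test. GBP2, a guanylate-binding protein, had 3, 1, 15 and 22 counts (log2 3.08, edgeR adjusted p = 4.91e-05). It passed the filter on low counts only through the FOXD2 libraries. The cytokine IL15 (log2 1.58, adjusted p = 0.000676) and GBP3 (log2 1.30, adjusted p = 0.00646) followed. WARS1, a tRNA synthetase, and PSMB10, an immunoproteasome subunit, fell by 0.82 and 0.59 (edgeR adjusted p = 2.98e-16 and 0.000463). A further 6 genes, among them IDO1, CXCL9 and CXCL11, were at 0 in all libraries. Many genes of this list also respond to type I interferon.

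Of 25 genes known as STAT3 targets, 21 were tested, 12 rose and 2 fell, with a median log2 fold change of 0.55. The share that rose was 57.1%, against 27.2% of all genes tested. LRG1 had 5, 3, 17 and 19 counts (log2 2.08, edgeR adjusted p = 0.0011) and passed the filter on low counts only through the FOXD2 libraries. The mucin MUC1 rose from 16 and 21 to 64 and 84 counts (log2 1.94, adjusted p = 2.23e-07), and CEBPD, a C/EBP factor of the acute phase, from 90 and 110 to 321 and 297 (log2 1.57, adjusted p = 4.84e-14). The inhibitor of apoptosis BIRC5 and the kinase PIM3 fell by 0.44 and 0.24 (edgeR adjusted p = 6.9e-08 and 0.00362). SOCS3, the classical feedback target of STAT3, did not pass, and IL6 was at 0 in all libraries.

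The genes next to each of the 8 were read as well. Within 50 kb of the 8 genes, 37 other genes were tested, of which 12 rose and 4 fell, with a median log2 fold change of 0.23 and a range from -0.52 to 2.05. The share that rose, 32.4%, is near the 27.2% of all genes tested. Falls were fewer than in the background, with 4 of 37 against 26.4% of all genes tested. The median over all genes tested was 0.01. PHRF1, which lies 331 bases from IRF7, had a log2 fold change of 0.00 (edgeR adjusted p = 0.995). RNF31, 392 bases from IRF9, had 0.14 (adjusted p = 0.174), whereas REC8, a meiotic cohesin subunit that lies 5288 bases from IRF9, rose by 2.05 (adjusted p = 1.04e-08). Also near IRF9, the proteasome activator genes PSME2 and PSME1 rose by 0.55 and 0.23 (edgeR adjusted p = 8.41e-09 and 0.00807). PAN2 near STAT2 rose by 0.61 and CAVIN1 near STAT3 by 0.32 (edgeR adjusted p = 1.18e-06 and 2.23e-05). KCP near IRF5 rose by 1.92 while IRF5 itself and TNPO3, on its other side, fell (adjusted p = 0.000793 and 1.36e-05 for KCP and TNPO3).

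**Figure D5:**
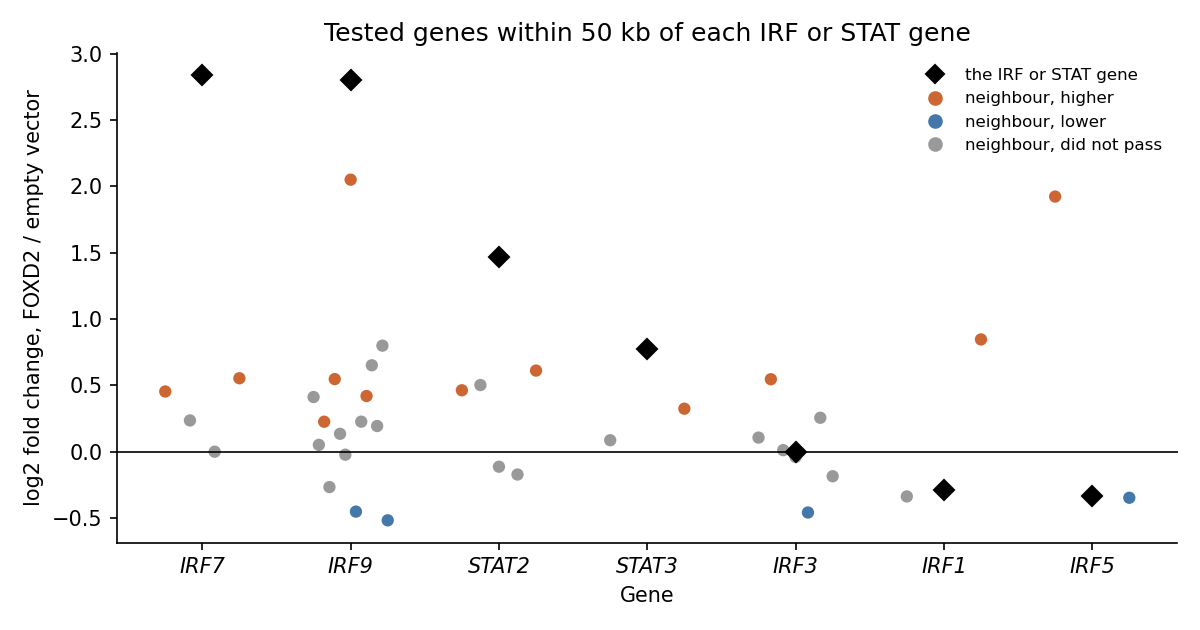
Log2 fold change (FOXD2 over empty vector) of the tested genes within 50 kb of each IRF or STAT gene, beside that of the gene itself. IRF7, IRF9, STAT2 and STAT3 lie above all their tested neighbours. The nearest of these neighbours to its gene is CAVIN1 at 0.32 beside STAT3 at 0.77. REC8 stands at 2.05 beside IRF9 at 2.80, but REC8 is above the 1.65 of IRF9 summed with AL136295.5.

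By the Euclidean distance between mean-centred log2 CPM over the 4 libraries, among genes of similar level, the tested gene nearest to IRF7 was IRF9 (distance 0.153), and IRF7 was the second nearest to IRF9 (0.153) after IL1RAP (0.151), the interleukin-1 receptor accessory protein. STAT2 was nearest to ISG15 (0.0575) and then RHPN1 (0.0603). STAT3 was nearest to ANKRD12 (0.0553) and PPL (0.0578). With 4 libraries in 2 groups this measure mostly ranks genes by their difference between groups.

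The cell identity of the libraries was checked with marker genes. Of 11 markers of HCT116 and colon epithelium, 10 were tested, 8 rose and 2 fell: the claudins CLDN4 and CLDN3 and the cadherin CDH1 rose by 1.98, 1.5 and 1.09, and CDX2 and ELF3 fell by 0.51 and 0.38 (all edgeR adjusted p at most 0.0054). Of the tested genes of this list 80% rose, against 27.2% of all genes tested. VIL1 had 2, 0, 1 and 6 counts. Of 19 markers of blood, endothelial and stromal cells, 4 were tested and 3 rose: CD68 from 63 and 80 to 658 and 520 counts (log2 2.98), COL1A1 (1.68) and ACTA2 (1.10), with edgeR adjusted p of 6.01e-26, 6.64e-18 and 5.35e-06. The markers PTPRC, CD3E, MS4A1, AIF1, CDH5, COL1A2, DCN and LUM were at 0 in all libraries, and the list summed to 18.8 and 21.7 CPM without FOXD2 and 85.8 and 77.6 CPM with it. The part of these markers in the rises of IRF7, IRF9 and STAT2 was not tested.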

How the data were processed

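The 4 libraries were made with a directional NEBNext kit after mRNA isolation from TRIzol extracts, per the labels' protocols. STAR 2.7.2b, RSEM 1.2.31 and the GRCh38 (hg38) build were used, per the submitters' processing notes; the annotation release and the strand setting are not given in the sources used here. Per the file headers, the authors deposited for each gene an RSEM expected count, in which shared reads are divided among genes, and its TPM and FPKM. Expected counts were rounded. The edgeR 4.0.16 quasi-likelihood test (R 4.3.3; TMM, filterByExpr, robust, two-sided) compared the groups, with Benjamini-Hochberg adjustment over 14470 genes at 0.05; SE and intervals derive from it. CPM values use TMM-scaled totals. TPM gave levels per length, and FPKM gave the same order. A symbol was found for 60370 of 60683 identifiers; coordinates are from GENCODE 29, whose transcripts for STAT2, IRF5 and IRF7 differ from those of the files.

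The 8 genes and all lists were chosen with earlier results of these data known. Named were FOXD2, the 8 genes and 6 other IRF and STAT genes (further genes of the family are not reported here), up to 3 genes with the largest rise and 3 with the largest fall that passed in each list, the feedback regulators SOCS1, SOCS3 and USP18, and genes said to be named after their values were seen. Genes nearest in pattern were the 2 with the smallest Euclidean distance in log2 CPM, among genes within 1 log2 unit in mean level. Replicates differed beyond sampling noise (chi-square per degree of freedom 2.52 and 3.91 within groups). Alternatives were another scaling or none, DESeq2 1.42.0, limma 3.58.1 on voom values and on log2(TPM + 1) and log2(TPM + 0.1), other filters, each library left out, the replicate number as a block, a 1.5-fold threshold and, added later, effective lengths and IRF9 summed with AL136295.5, for its fold change and its TPM.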

Additional observations from a re-analysis of the deposited data

How the results depend on the processing

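The calls of IRF7, IRF9, STAT2 and STAT3 held in each alternative tried, with log2 fold changes of 2.72 to 3.03, 1.65 to 2.93, 1.38 to 1.61 and 0.67 to 0.87. The number of the 8 genes that rose stayed within 1.5 times of 5. The number that fell was 0 with no scaling, DESeq2, both TPM fits, the 1.5-fold threshold or effective lengths, and 0 to 1 when a library was left out. IRF3, at 0.00, changed sign to -0.0051 (DESeq2 size factors), -0.0146 (DESeq2), -0.0459 and -0.0466 (TPM fits), -0.0131 (no filter) and -0.0800 (effective lengths), and ranged from -0.0252 to 0.0167 with a library left out. With the replicate number as a block, 3680 genes rose and 3494 fell, and 5 and 1 of the 8; same-numbered libraries did not deviate together (r = -0.0989 over genes), so the numbers do not show pairing. Over all genes, 2407 rose with DESeq2, 2319 and 2277 fell in the TPM fits at pseudocounts of 1 and 0.1, and 1175 rose and 515 fell past 1.5-fold, where 69.5% of calls were rises against 50.7%. Of receptors and Janus kinases, 3 rose with DESeq2 or effective lengths, 2 in both TPM fits and 3 to 5 with a library left out; 0 fell in those 4 fits and 0 to 4 with a library left out, the 0 without empty vector replicate 1. Of adaptors and kinases, 4 rose with DESeq2, both TPM fits and effective lengths; 0 fell in those, with no scaling and with the block, 1 with voom or a 1 CPM filter, and 0 to 1 with a library left out. Falls among ISGF3 targets numbered 1 with no scaling, DESeq2 or effective lengths, 0 in both TPM fits and 1 to 2 with a library left out. Falls among STAT3 targets numbered 1 in both TPM fits and 1 to 3 with a library left out (1 without empty vector replicate 2). Falls among epithelial markers numbered 1 with no scaling, 0 in both TPM fits and with effective lengths, and 1 to 2 with a library left out (1 without empty vector replicate 2). With the reads of AL136295.5 given to IRF9, 4 pairs of the 8 genes stood in another order by TPM among controls and 1 pair did with FOXD2. With 1 more A in the ISRE letters, 0 of the 8 genes held them. The causes were not tested. With 2 libraries a group, the typical SE limits what can pass, and IRF2, IRF5 and IRF1 lie near that limit.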
